A study of Caenorhabditis elegans with 2 samples.

Results

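The genes described here are 5 named U1 small nuclear RNA (snRNA) genes of Caenorhabditis elegans, sup-6, sup-39, H27M09.6, F08H9.10 and T27E4.12, out of 46926 annotated genes. They were chosen by name, and a peak was assigned to a gene where its summit lay within 250 bp of the gene's annotated 5′ end. Whole first-stage (L1) larvae of strain OP179, of both sexes pooled, were profiled by chromatin immunoprecipitation with sequencing against SNPC-4 carrying an eGFP tag. The strain has the genotype unc-119(ed3) III; wgIs179, so the tagged protein comes from a transgene, wgIs179, in an unc-119 mutant background that both samples share. The 2 samples are biological replicates of this 1 group, with no second genotype, treatment or stage, and whole animals mix all cell types. No test of a condition is therefore possible, and the results are values, ranks and counts.

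U1 snRNA is the RNA of the U1 ribonucleoprotein, which pairs through the 5′ end of the RNA with the 5′ splice site of an intron and so starts the assembly of the spliceosome. The RNA is transcribed by RNA polymerase II from a compact promoter, whose proximal sequence element is bound by the small nuclear RNA activating complex (SNAPc), and SNPC-4 is the worm form of the largest SNAPc subunit. The genome holds many near-identical U1 genes. Among them sup-6 and sup-39 are known from genetics: mutations in the 5′ end of either RNA suppress the unc-73(e936) splice-site mutation by changing which bases U1 pairs with.

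The annotation does not name the snRNA types, so the U1 family was gathered by alignment to sup-6. Of 99 annotated snRNA genes 13 had at least 80% identity to it, and the next gene reached 54.5%. A search of the whole genome with the sup-6 sequence found 12 matches, all of them at these genes. The 13 genes make 12 loci, because T27E4.22 is an annotation of 156 bases that overlaps T27E4.12 by 155 bases and lacks its 5′ end. Beside the 5 named genes the family has 7 other loci, F08H9.11, T08G5.11, F40G12.13, F40G12.14, T27E4.10 and T27E4.11 on chromosome V and C27H5.11 on chromosome II.

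The sequences of sup-6, sup-39 and T27E4.12 are shown whole, because they are the suppressor loci, which have the strongest peaks of the named genes, and the gene with the weakest peak. All are from the reference genome (WBcel235, the assembly of build ce11), written 5′ to 3′ on the minus strand, with T for U. Capitals mark the 9 bases, ACTTACCTG, that pair with the 5′ splice site.
sup-6, chrII:12944803-12944967: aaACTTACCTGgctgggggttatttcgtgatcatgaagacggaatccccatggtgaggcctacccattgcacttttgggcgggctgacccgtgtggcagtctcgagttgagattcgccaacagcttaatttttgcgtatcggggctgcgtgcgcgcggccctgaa
sup-39, chrII:6968394-6968558: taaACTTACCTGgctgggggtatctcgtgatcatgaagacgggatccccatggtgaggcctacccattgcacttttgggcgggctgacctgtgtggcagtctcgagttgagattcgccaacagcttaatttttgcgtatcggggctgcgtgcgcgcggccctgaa
T27E4.12, chrV:9091454-9091623: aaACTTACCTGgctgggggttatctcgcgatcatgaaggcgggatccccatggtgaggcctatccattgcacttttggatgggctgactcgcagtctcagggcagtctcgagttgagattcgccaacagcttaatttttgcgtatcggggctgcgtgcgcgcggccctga

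The pairing bases were the same at all 12 loci. Aligned to sup-6, sup-39 had 3 substitutions (T24C, A43G and C90T, counted from the first base of sup-6) and 2 gapped bases, and T27E4.12 had 9 substitutions and 7 gapped bases. F08H9.10, which is 165 bases long like sup-6 and sup-39, had 5 substitutions and no gap. Between pairs of the 5 named genes the RNA sequence was 89.1 to 97.0% identical, with a median of 94.3% over 10 pairs. The 100 bases before the pairing bases had 46 to 73% identity and a median of 56.5% over the same pairs. These upstream bases were compared position by position without gaps, so an inserted or lost base lowers the value. The RNA alignment allowed gaps, so the upstream and RNA identities are not like measures. The annotated 5′ end of sup-39 lies 1 base further upstream of the pairing bases than that of the other loci, so its offsets read 1 base shorter.

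The upstream sequences of 7 loci are shown next, from 75 bases before the pairing bases to their end, since the thresholded summits of the named genes lie in this stretch. T27E4.10 and F40G12.13, which had no thresholded summit, are shown for comparison. Capitals mark a block of 19 bases that stood out in the family and, at the right end, the pairing bases.
sup-6, chrII:12944957-12945040, minus strand: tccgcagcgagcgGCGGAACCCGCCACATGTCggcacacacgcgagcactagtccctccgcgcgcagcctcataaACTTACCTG
sup-39, chrII:6968547-6968630, minus strand: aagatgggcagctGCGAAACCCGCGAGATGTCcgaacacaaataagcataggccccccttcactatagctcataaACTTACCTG
F08H9.10, chrV:14463342-14463425, minus strand: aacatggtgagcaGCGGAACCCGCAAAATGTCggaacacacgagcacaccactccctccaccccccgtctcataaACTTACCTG
F08H9.11, chrV:14468723-14468806, minus strand: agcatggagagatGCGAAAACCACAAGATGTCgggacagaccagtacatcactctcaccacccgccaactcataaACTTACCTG
T27E4.12, chrV:9091613-9091696, minus strand: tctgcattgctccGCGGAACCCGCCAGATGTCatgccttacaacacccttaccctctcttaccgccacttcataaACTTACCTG
T27E4.10, chrV:9090803-9090886, plus strand: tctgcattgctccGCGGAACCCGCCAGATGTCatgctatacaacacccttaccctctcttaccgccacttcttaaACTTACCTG
F40G12.13, chrV:14267470-14267553, plus strand: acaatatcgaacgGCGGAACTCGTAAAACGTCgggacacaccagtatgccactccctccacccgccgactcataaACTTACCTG

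The peak lists are the authors' own. A relaxed list of 30000 peaks was deposited for each replicate and another for the pooled replicates, and a thresholded list of 2347 peaks was derived from these by the irreproducible discovery rate. All 2347 thresholded peaks are in the pooled list with the same signal, so the pooled list adds nothing at the named genes. Signal is the authors' enrichment value, which has no stated scale and was used only within a list, where it ranks the peaks (rank 1 is the highest). Ranks count every peak of a list, those on mitochondrial DNA included. Of the 2347 thresholded peaks 2319 are nuclear. In the thresholded list signal ran from 32.3 to 6125 with a median of 53.3. Read numbers are unknown, so no counting error can be given, and the spread between the replicates is the measure of error used.

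All 5 named genes had a thresholded summit within 250 bp, where 3.86% of the 46890 nuclear genes and 38.4% of the 86 snRNA genes not typed as U1 had one. These 86 include mir-1831, which lies in sup-39 and has the sup-39 peak. The same held for 69.2% of the 13 U1 annotations. The genes were named with earlier results of these data known, so the count of 5 is a description. In the relaxed lists, where all 5 also had a summit, the share of nuclear genes was 20.8% in replicate 1 and 21% in replicate 2, and that of U1 annotations 76.9% and 84.6%. Of all 99 snRNA genes 57.6% had a summit in replicate 2. Among the 2347 highest peaks of a replicate, where all 5 were present again, the shares of nuclear genes were 3.65 and 3.8%. The values at the 5 genes differed widely. Their signal was 3960 at sup-6, 1342 at sup-39, 175 at H27M09.6, 117.1 at F08H9.10 and 47.4 at T27E4.12, which is an 83.6-fold span. The 5 peaks held 1.86% of the summed signal of the list, and sup-6 alone held 70.2% of that. The order of the 5 genes by signal was the same in every list.

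**Figure D1:**
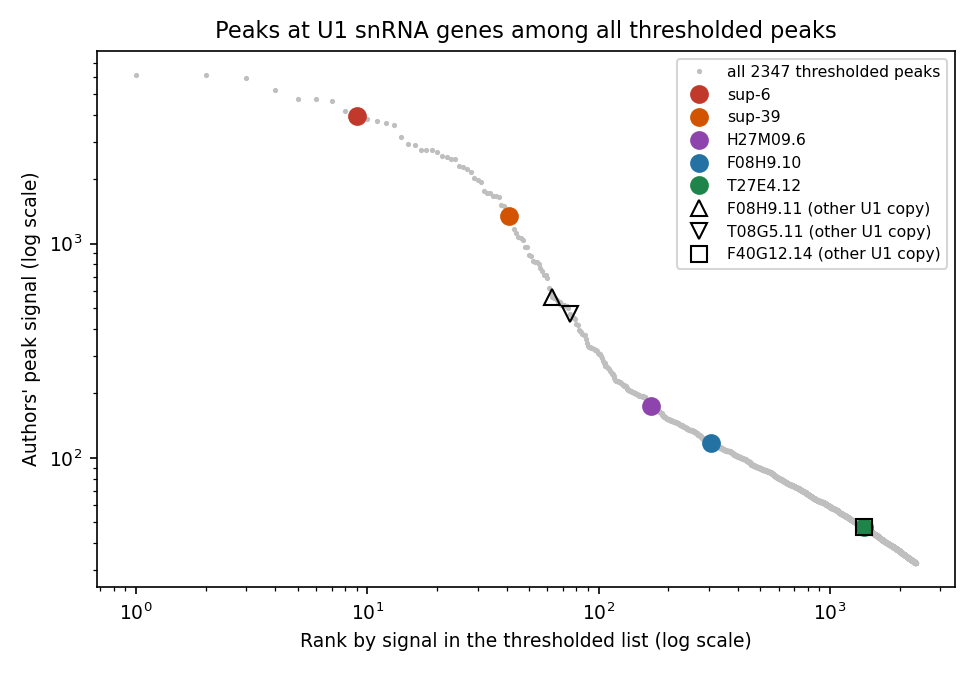
Signal of every thresholded peak (grey) against its rank, both on log scales, with the 5 named U1 genes in colour and the 3 other U1 copies with a thresholded summit as open symbols. The U1 peaks run from rank 9 (sup-6) to rank 1405 (T27E4.12), and T27E4.12 and F40G12.14 coincide at the low end.

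The suppressor locus sup-6 carried the strongest peak of the family. Its summit lay 55 bp upstream of the gene with signal 3960 and rank 9, and among snRNA genes only W05B2.8, at signal 6125, stood above it. In replicate 1 the signal was 1580 at rank 9 with the summit at -54 bp, and in replicate 2 it was 2419 at rank 8 with the summit at -55 bp. The replicates therefore differed by 1 rank and 1 bp. Among small RNA peaks, meaning those near snRNA, spliced leader RNA or small nucleolar RNA (snoRNA) genes, the next higher was at the snoRNA gene Y37E3.20 (4646), and the next lower at sls-2.1 (3816), which encodes an SL2 spliced leader RNA.

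The peak at sup-6 spanned 518 bp, chrII:12944717-12945234, and was the widest of the 5. It reached 267 bp before the gene and covered all of the gene's 165 bases. In the thresholded list 81.9% of peaks had a single width of 344 bp. The gene lies in an intron of the protein-coding gene F58G1.7 on the same strand, whose own start is 3236 bp upstream of the summit. A pair of overlapping non-coding RNA genes of 144 bases, F58G1.11 and F58G1.12, is annotated on opposite strands across the promoter, and the summit falls inside both, 38 and 106 bp after their starts. Chromatin immunoprecipitation has no strand, so these starts and that of sup-6 share the peak.

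The other suppressor locus, sup-39, had the second strongest peak of the named genes. The summit lay 54 bp upstream with signal 1342 and rank 41. Replicate 1 gave a signal of 499 at rank 42 and replicate 2 gave 852 at rank 41, with the summit at -54 bp in each. Within a list, the signal of sup-6 was 2.95-fold that of sup-39 among thresholded peaks, 3.17-fold in replicate 1 and 2.84-fold in replicate 2. Among small RNA peaks its neighbours by signal were the snRNA gene M163.13 (1444) and the snoRNA gene Y67A10A.14 (1170).

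The sup-39 peak was 324 bp wide (chrII:6968438-6968761). Like sup-6, sup-39 is intronic, within the protein-coding gene C15F1.5 on the same strand, whose start is 2003 bp upstream of the summit. A non-coding gene of 171 bases on the opposite strand, C15F1.14, covers the whole of sup-39. The annotation also places mir-1831, which it classes as an snRNA, on bases 8 to 29 of sup-39. Its 22 bases, shown because they overlap the splice-site pairing stretch, are:
mir-1831, chrII:6968530-6968551, minus strand: acctggctgggggtatctcgtg
This sequence occurred once in the genome, in sup-39, and in no other U1 locus. The summit lay 61 bp upstream of it, and the peak of mir-1831 is that of sup-39.

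H27M09.6 stands alone on chromosome I (I:6847137-6847303, minus strand, 167 bases), with no protein-coding gene over it. The summit lay 52 bp upstream with signal 175 and rank 168. In replicate 1 the signal was 65.9 at rank 219 with the summit at -53 bp, and in replicate 2 it was 109 at rank 153 with the summit at -58 bp. The ranks differed 1.43-fold between replicates, more than at sup-6 and sup-39. The gene is divergent from syp-4, which encodes a protein of the synaptonemal complex of meiotic chromosomes, and the starts lie 208 bp apart. The same summit was 156 bp upstream of syp-4, in intergenic sequence, and the antisense non-coding gene H27M09.7 covers the whole of H27M09.6. Nearest by signal among small RNA peaks were the snoRNA gene F54F11.6 (176) and the snRNA gene K09C6.12 (152).

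F08H9.10 had a narrow and less precisely placed peak. It was 175 bp wide (chrV:14463322-14463496), with signal 117.1, rank 306 and the summit 56 bp upstream. The ranks in the replicates were close, 290 in replicate 1 (signal 55.8) and 287 in replicate 2 (signal 70.6). The summits were not, at -33 and -72 bp, a gap of 39 bp and the largest among the named genes. The protein-coding gene F08H9.3 starts 14 bp inside F08H9.10 on the same strand, so the summit is also 70 bp upstream of F08H9.3, and the peak cannot be given to either alone. The non-coding gene F08H9.14 runs antisense over all of F08H9.10. Among small RNA peaks it stood by signal between smy-9 (117.3), a nematode-specific SmY snRNA gene, and a snoRNA gene (111).

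T27E4.12 had the weakest peak of the 5, below the median of the thresholded list. Its signal was 47.4 at rank 1405, in a peak of the common width of 344 bp (chrV:9091514-9091857) with the summit 63 bp upstream. Replicate 1 gave 19.95 at rank 1643 with the summit at -72 bp, and replicate 2 gave 31.4 at rank 1157 with the summit at -61 bp. The overlapping T27E4.22 shares the peak, with the summit 78 bp before its annotated start, and the antisense non-coding gene T27E4.15 covers the locus. F40G12.14, another U1 gene (47.5), and the snoRNA gene M106.6 (46.9) were next to it by signal among small RNA peaks.

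**Figure D2:**
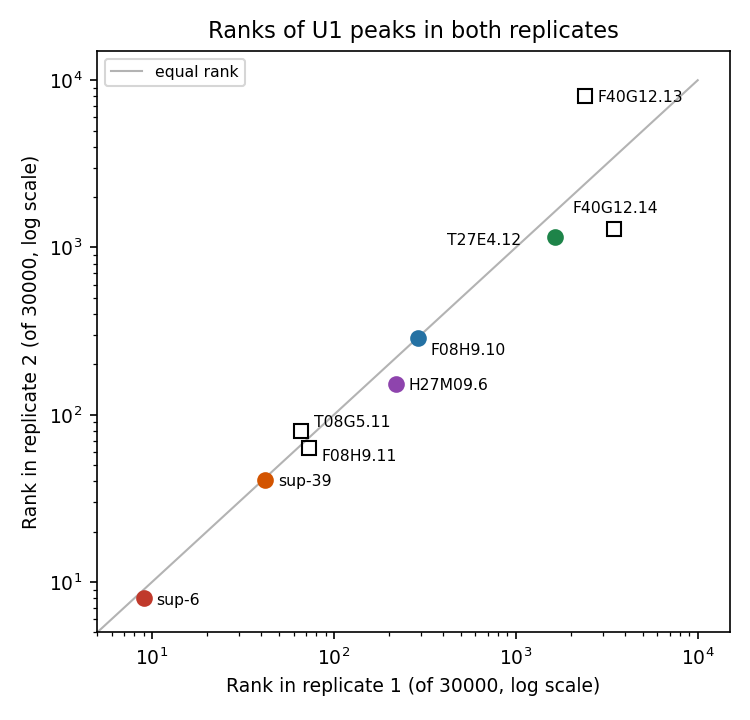
Rank of the U1 peaks in replicate 2 against replicate 1, each out of 30000 relaxed peaks and on log scales, with named genes as filled circles and other U1 copies as open squares. The strong peaks lie on the line of equal rank (sup-6 9 and 8, sup-39 42 and 41), and the weak ones scatter, most at F40G12.13 (2406 and 8086). Ranks are those of the nearest summit, and in replicate 2 F40G12.13 also had a stronger summit 210 bp after its start.

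Over the 5 genes the median offset was -55 bp in the thresholded list (from -63 to -52), -54 bp in replicate 1 (from -72 to -33) and -58 bp in replicate 2 (from -72 to -54). All summits were upstream. The 33 snRNA genes not typed as U1 with a thresholded summit, mir-1831 among them, had a median offset of -56 bp, with 29 of them upstream. The range of offsets at the named U1 genes lay within that of the other snRNA genes, which ran from -72 to 123 bp.

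**Figure D3:**
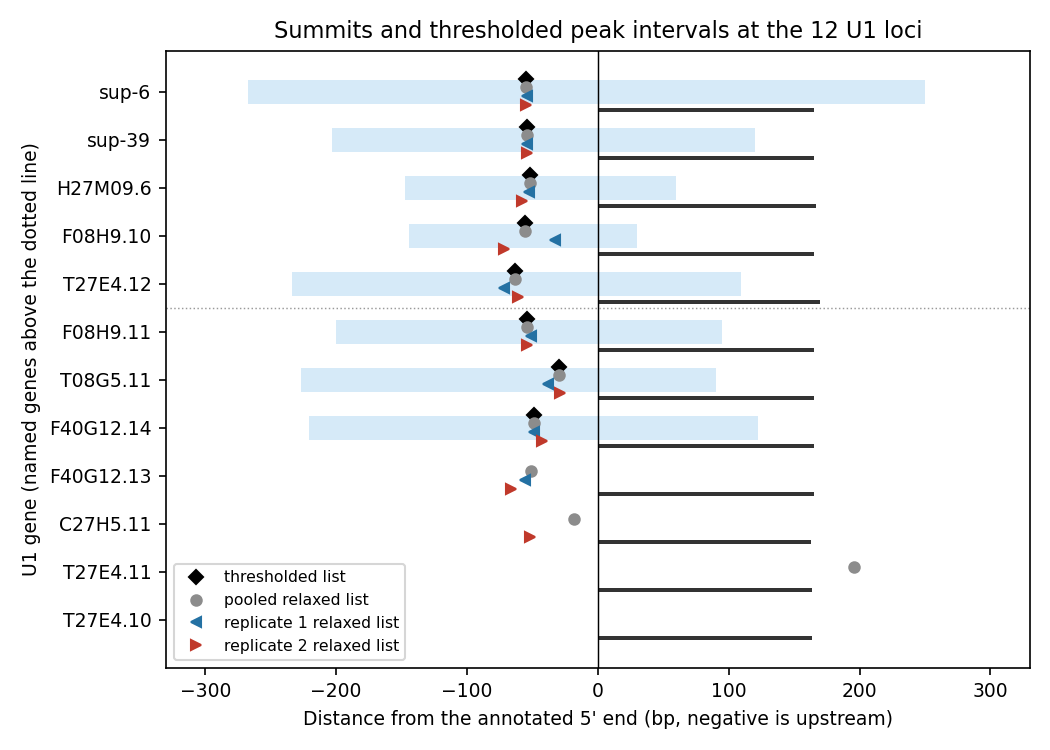
Summits at the 12 U1 loci in each of the 4 lists, in bp from the annotated 5′ end (negative is upstream), with the thresholded peak interval as a pale bar and the gene as a dark line. Thresholded summits lie between -63 and -30 bp, the replicates differ most at F08H9.10 (-33 and -72 bp), and T27E4.10 has no summit in any list.

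Of the 7 other U1 loci, 3 had a thresholded summit. F08H9.11 had signal 564 at rank 63 with the summit at -54 bp, and T08G5.11 had 470 at rank 75 with the summit at -30 bp, so both were stronger than 3 of the 5 named genes. F40G12.14 had 47.5 at rank 1398 with the summit at -49 bp. Its ranks in the replicates, 3465 and 1285, lay 2.70-fold apart. Like the named genes other than sup-6, F08H9.11 and T08G5.11 have an antisense non-coding gene over most or all of their length, F08H9.13 and T08G5.18.

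The remaining 4 loci had no thresholded summit. F40G12.13 had a summit at -51 bp in the pooled relaxed list (signal 27.9, rank 2795) and at -56 and -66 bp in replicates 1 and 2. In replicate 2 a stronger summit (12.99) lay 210 bp after its start, but the nearest (8.94) was taken by rule. C27H5.11 had one at -18 bp in the pooled list (25.2, rank 3169) and at -52 bp in replicate 2 (25.6, rank 1574), and none within 250 bp in replicate 1. These pooled peaks were below the lowest thresholded signal of 32.3. T27E4.11 had only a weak pooled summit 196 bp after its start (7.77, rank 24068), and T27E4.10 had none in any list, its nearest pooled summit being that of T27E4.12 at 810 bp. In the pooled relaxed list 21.8% of all nuclear genes and 92.3% of U1 annotations had a summit within 250 bp.

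Several of these genes lie close together. F08H9.10 and F08H9.11 are 5.38 kb apart on the same strand, and their RNA sequences are 98.8% identical, but F08H9.11 had 4.81-fold the signal of F08H9.10 among thresholded peaks, 3.55-fold in replicate 1 and 5.35-fold in replicate 2. Their 100 upstream bases were 67% identical. F40G12.13 and F40G12.14 are 10.03 kb apart on the same strand with upstream sequences 83% identical. In the pooled list F40G12.14 was higher (47.5 against 27.9). The replicates ordered this pair in opposite ways, so they do not settle the order. F40G12.13 was higher in replicate 1 (15.5 against 12.4) and F40G12.14 in replicate 2 (29.3 against 8.94). T27E4.10 and T27E4.12 are on opposite strands, with their starts 747 bp apart, and T27E4.11 lies 3.85 kb from T27E4.10. Their upstream sequences are 100% identical between T27E4.10 and T27E4.11 and 97% between either of them and T27E4.12.

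The placing of reads bears on such copies, since a read that occurs at several places has no unique position. Neither the length of the reads nor their treatment is stated in the labels or notes, so the share of 36-base words that occur once in the genome was taken over the 501 words around each start. For words wholly upstream of the gene the share was 1 at sup-6, sup-39 and H27M09.6, 0.976 at F08H9.10 and 0.868 at T27E4.12. It was 0 at T27E4.10 and T27E4.11, both without a thresholded summit, and 1 at F40G12.13 and C27H5.11, which also had none. Over the shared block the share at T27E4.12 was 0.574, and with words of 50 bases it was 0.721. The part that repeated sequence has in the low or missing peaks of the T27E4 genes was not tested. Inside the genes the share ran from 0 at F40G12.13 and T27E4.10 to 0.598 at H27M09.6, with words found up to 11 times.

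**Figure D4:**
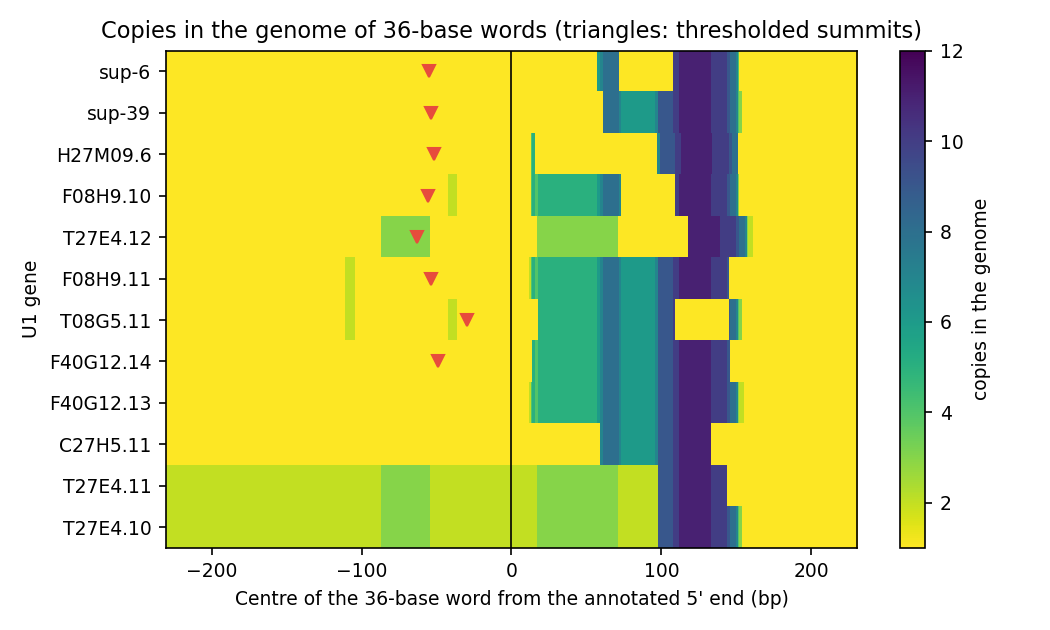
Number of copies in the genome of each 36-base word around the 12 U1 starts, by the position of the word's centre in bp from the annotated 5′ end, with triangles at the thresholded summits. Upstream words are single-copy at most loci and repeated throughout at T27E4.10 and T27E4.11, and words inside the genes have up to 11 copies.

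The block shown in capitals was chosen as the stretch on which the loci agreed most, so its agreement is partly set by that choice. With the sequences set side by side without gaps from the pairing bases, the most alike stretch of 20 bases, trimmed to 19, ran from 60 to 42 bp before the start of sup-6. Its form is GCGGAACCCGCNANATGTC, in which 17 bases are those held by at least 10 of the 12 loci and N is any base. On average 10.8 of 12 loci had the commonest base in the block and 7.58 in the other 79 upstream positions compared, which leave out the bases next to the gene, where agreement rises again. All 5 named genes had the same base at 14 of the 19 block positions and at 7 of the other 79. The 3 T27E4 loci are nearly identical there and count separately.

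Of the 17 fixed bases, sup-6, F08H9.10 and T27E4.12 matched all, sup-39 had 1 difference and H27M09.6 had 2. Against sup-6, counted from the first base of the block, sup-39 differed by G4A, C12G and C14G and T27E4.12 by C14G alone, where positions 12 and 14 are the free ones. The thresholded summit fell inside the block at 4 of the 5 named genes and 3 bp before it at T27E4.12. At F08H9.10 neither replicate placed it there. From the pairing bases the block runs from -62 to -44 bp, and the F08H9.10 summits were at -35 bp in replicate 1 and -74 bp in replicate 2. Measured from the pairing bases, the summits of sup-6 and sup-39 were at the same place, -57 bp. Among loci that matched all 17 fixed bases, sup-6 had signal 3960, T08G5.11 had 470 and F08H9.10 had 117.1. Of the other U1 copies, F40G12.14 (47.5) had 1 difference and F08H9.11 (564) had 3. The single-copy share of block words was 0.889 at F08H9.10 and T08G5.11. T27E4.12 and T27E4.10 also matched all 17, but their block words are only partly single-copy or not at all (shares of 0.574 and 0). Their low or missing peaks therefore cannot be set against the number of matches. A relation of signal to matches was not tested.

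**Figure D5:**
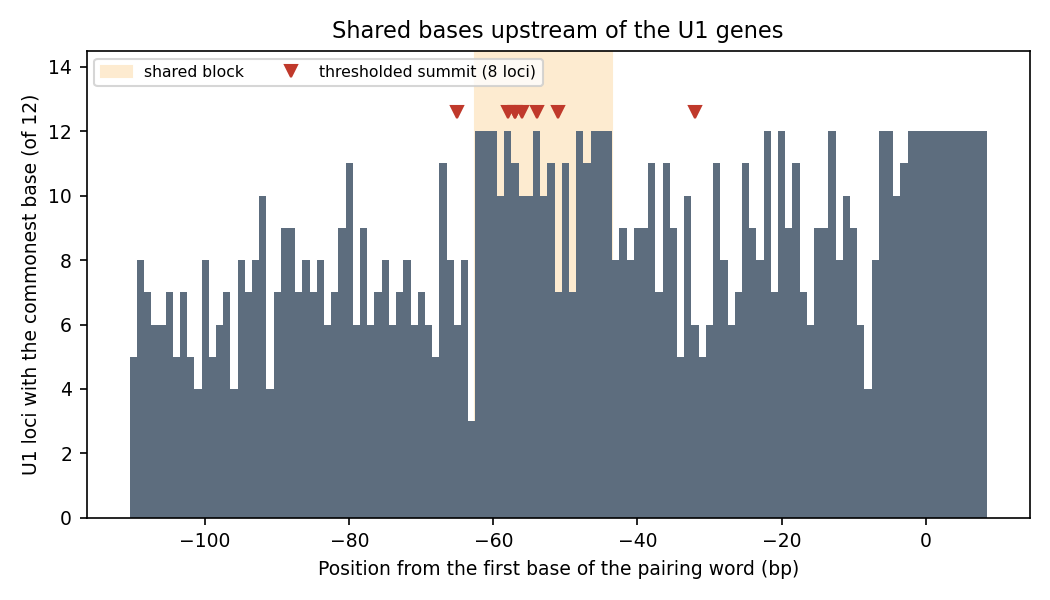
Number of the 12 U1 loci that have the commonest base at each position, counted in bp from the first pairing base, with the shared block shaded and the 8 thresholded summits as triangles (sup-6 and sup-39 coincide). Agreement is high in the block and at the start of the gene. Of the thresholded summits 6 fall in the block, and those of T27E4.12 and T08G5.11 lie outside it. The F08H9.10 summit lay outside the block in each replicate.

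The block was then looked for in the 110 bases upstream of every nuclear gene, on both strands. Allowing no mismatch among the 17 fixed bases, 0.0235% of 46889 windows held it, which is 11 genes, all on the strand of the gene. Of these 7 were U1 annotations and F08H9.3 shares the F08H9.10 promoter. The other 3 were the SL2 genes sls-2.14 (thresholded signal 960.5) and sls-2.15 (no thresholded summit) and the snoRNA gene F54F11.6 (176), the neighbour of H27M09.6 by signal among small RNA peaks. Allowing up to 3 mismatches on the gene's strand, the block was in 27 of 86 other snRNA windows (31.4%, mir-1831 included), 7 of 30 SL RNA windows (23.3%) and 32 of 346 snoRNA windows (9.25%). It was in 5 of 19973 protein-coding windows (0.025%) and in none of 612 tRNA windows. As the block was built from the U1 genes, its presence at all 12 U1 loci at this setting is built in. A match is a description and not a measured binding site.

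Genes for the proteins that U1 RNA works with were looked at for comparison. Of 12 genes for U1 particle proteins and their assembly, 3 had a thresholded summit within 250 bp, where 5.09% of protein-coding genes did. These were rnp-2, which encodes a protein of the U1 particle (signal 41.4, summit at -96 bp), snr-3, for the Sm core protein SmD1 (58.8, -230 bp), and prp-40, for a splicing factor associated with U1 (89.1, -188 bp). Measured from annotated 5′ ends, their summits lay further upstream than those of the named U1 genes. Other genes that may share these 3 peaks are not listed here. Of 7 SNAPc subunit genes found in the annotation, snpc-3.4 alone had a thresholded summit (38.6, -11 bp). The nearest summit at snpc-3.4 was at 120 bp, inside the gene's side, in replicate 1 and at -5 bp in replicate 2.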

How the data were processed

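Peak lists of 2 biological replicates on build ce11 were used. The authors made the relaxed lists from alignments and a control, then filtered them by irreproducible discovery rate into the thresholded list, per the deposited notes. Aligner, peak caller and read depth are not stated there or in the labels. The deposited signal is never negative. The deposited −log10 q had the same value, 2.95, throughout the thresholded list and cannot order it, so signal was used for ranks. Positions and summits are in other deposited columns. Lists on ce10 were not used.

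Genes came from Ensembl release 115 (WBcel235) and sequence from the RefSeq copy of that assembly, and repeated gene names were replaced by RefSeq names at the same place. Identity of gene sequences was measured by global alignment with Biopython 1.88, and that of upstream bases position by position without gaps. The genome was searched with BLAST 2.17.0. Python 3.11.15, numpy 2.4.6, pandas 2.3.3 and matplotlib 3.10.9 were used. Where several summits lay in a window the nearest was taken. No test was run: 1 group has no contrast. The sign and size of offsets were checked on summits planted at known distances from gene starts. The choice of a peak for a gene was not checked in this way. The members, lists and rules were chosen with earlier results of these data known. Named were the 5 genes, all U1 genes, genes sharing their peaks, the small RNA genes next to them in signal, and members of the protein lists with a thresholded summit. W05B2.8, sls-2.14, sls-2.15 and the block were singled out after their values were seen.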

Additional observations from a re-analysis of the deposited data

How the results depend on the processing

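All 5 named genes kept a summit with windows of 100 or 500 bp, with overlap of the gene body, and with the 2347 highest peaks of either replicate alone. The shares of all nuclear genes were 1.73% within 100 bp, 5.63% within 500 bp and 4.21% with overlap of the gene body. They were 3.65% with replicate 1 alone and 3.8% with replicate 2 alone. Among the 1173 thresholded peaks of highest signal T27E4.12 dropped out, leaving 4, where 2.12% of all nuclear genes were called. Over all 13 U1 annotations the count of 9 became 6 among those peaks, 10 with replicate 2 alone (C27H5.11 added) and 8 with replicate 1 alone (F40G12.14 lost). By construction, the 1811 genes called over the whole annotation became 809 within 100 bp, 2638 within 500 bp and 992 among the 1173 peaks. With overlap of the gene body 1975 were called. The median offset of -55 bp ranged from -58 to -54 bp when a replicate was left out, and the median rank of 168 from 153 to 219. Among nuclear peaks only, the median rank in the thresholded list was 147. The nuclear ranks were 8 at sup-6, 38 at sup-39, 147 at H27M09.6, 284 at F08H9.10 and 1381 at T27E4.12. Identity limits of 70 or 90% gave 13 and 12 U1 genes. The median share of single-copy words over the 12 loci was 0.757 with 36 bases and 0.833 with 50 bases. No paired analysis was possible because the samples form 1 group. Depth is unknown, so weak or missing peaks cannot be read as missing binding.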
